A study of Mus musculus with 2 samples.

Results

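The 39 Hox genes of the mouse were followed in basal cells of the mammary gland, in a library from control mice (Ctrl basal) and a library made after clodronate liposome injection (CL basal). They were the gene rows named *Hoxa*, *Hoxb*, *Hoxc* or *Hoxd* with a number, 39 of 49492 rows in the count table, and the naming rule itself uses no measured value. Both libraries came from wild-type adult female mice, 8 to 10 weeks old, and both were labelled day 7. CL mice received clodronate liposomes, lipid vesicles that kill the macrophages that take them up, by repeated intraperitoneal injection. Control mice carry the treatment label none, and the series design names saline. The cells were sorted as lineage-negative CD24+ CD29hi cells, the gate for basal epithelium, whose cells contract to expel milk. There was 1 library per group, and the number of animals behind each was not given in the sources used here.

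Hox genes encode transcription factors with a homeodomain, a DNA-binding domain shared by many regulators of body pattern. In mammals they lie in 4 clusters, HoxA to HoxD, and genes with the same number in different clusters (a paralog group) descend from a single ancestral gene. Low numbers are used toward the head and early in the embryo, and high numbers toward the tail, so the numbers that a tissue keeps in the adult record where it arose along the body axis. Hox proteins bind DNA with cofactors of the Pbx and Meis families, Polycomb proteins keep clusters silent and Trithorax proteins keep them active, and retinoic acid is a classical inducer of the low-numbered genes. In the mammary gland, mice lacking the *Hoxa9*, *Hoxb9* and *Hoxd9* paralogs develop too little gland tissue after pregnancy to nurse their young, and *Hoxc8* takes part in placing the mammary buds.

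The libraries held 37846008 counts (Ctrl basal) and 38962512 counts (CL basal). Basal markers were abundant and close in both, with a median log2 difference of 0.08 over 12 genes, and *Trp63*, the defining basal transcription factor, had 5984 counts in Ctrl basal and 6601 in CL basal. Markers of other cells were present too: *Pecam1*, which encodes the CD31 antigen that the sort excluded, had 5503 and 4266 counts, in the same order. Without replicates, the differences given here have no check against the spread between animals, and no p-value is given. Intervals of 95% cover counting error only. Of the 52 Hox counts above 0, 35 (67.3%) were even numbers, and whether the mates of a read pair were counted separately is not given in the sources used here. If they were, the intervals are too narrow.

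The basal libraries had reads mainly from the lower and middle Hox numbers, and few or none from the outermost genes. The part of other cells in these reads was not tested. Of the 39 genes, 26 had at least 1 count in each library, 12 had 0 counts in both, and 20 reached 20 counts over both libraries, the minimum set for a comparison. Levels were low. In RPKM (counts per kilobase of exonic length, scaled for library size), 3 genes reached 1 RPKM in each library, all of them in HoxB. Without Hox genes that share exonic bases with another row, 2 did. The median of the 20 genes was 0.366 RPKM in Ctrl basal and 0.271 RPKM in CL basal. It was 2.52 and 2.45 RPKM, in the same order, over all 17356 genes that passed the same minimum. All 20 lay below the median of all genes in Ctrl basal.

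**Figure D1:**
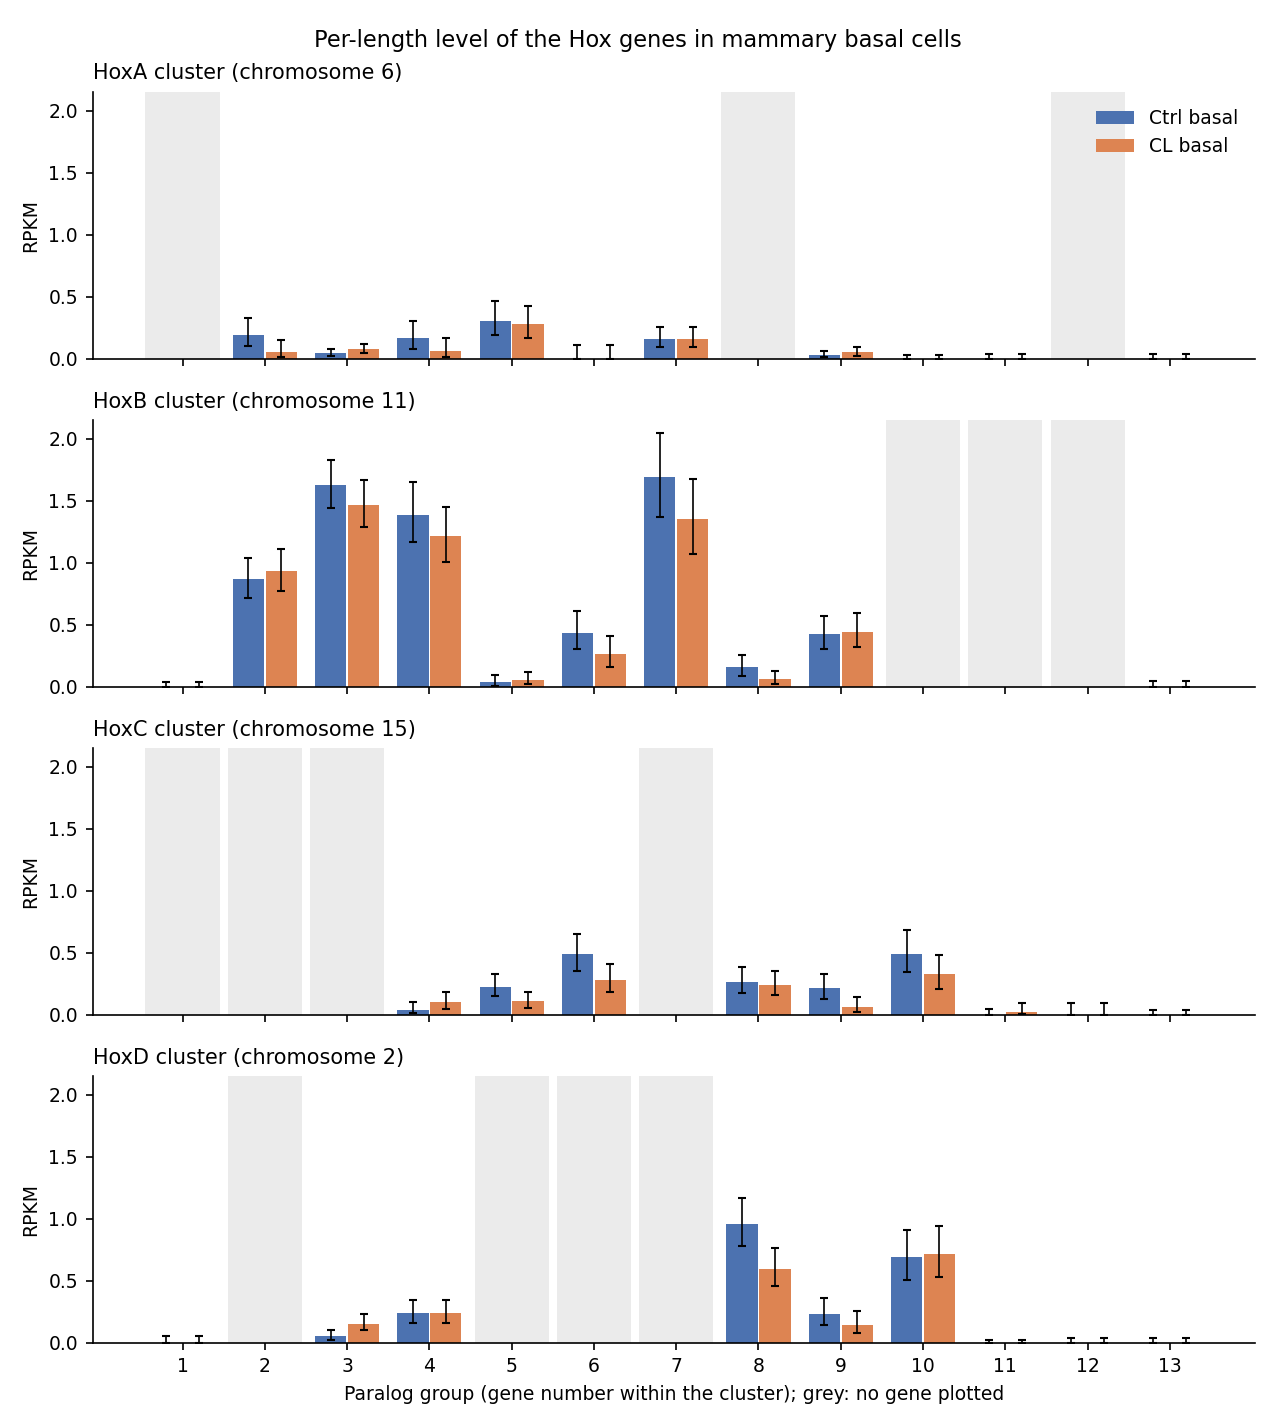
Level of the Hox genes in RPKM (linear axis from 0), by cluster and paralog group, in Ctrl basal (blue) and CL basal (orange). Bars are the value of 1 library and lines are exact 95% Poisson intervals of its count, and grey spans hold no plotted gene. The tallest bars belong to *Hoxb7*, *Hoxb3* and *Hoxb4*, and groups 11 to 13 are at or near 0 in every cluster.

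HoxB (chromosome 11, 96194316 to 96368256, GRCm38) supplied most of the Hox reads, 61.1% of the Hox counts of Ctrl basal and 64.1% of those of CL basal. *Hoxb7*, a gene often overexpressed in breast cancers, was the highest per length in Ctrl basal, with 100 counts and 1.69 RPKM (95% Poisson interval 1.37 to 2.05), and had 80 counts and 1.35 RPKM in CL basal. *Hoxb3*, a hindbrain and neck patterning gene, had the most counts, 265 in Ctrl basal and 240 in CL basal, which gave 1.63 RPKM (1.44 to 1.83) and 1.47 RPKM. It shares 52.9% of its exonic bases with the antisense gene *Hoxb3os*, so its value cannot be read alone. *Hoxb4*, known for expanding blood stem cells, had 137 and 120 counts, or 1.39 and 1.22 RPKM. The intervals of *Hoxb7*, *Hoxb3* and *Hoxb4* overlapped, so their order cannot be read, and *Hoxb3* moved to the first place in CL basal.

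*Hoxb2*, another hindbrain gene, had 116 counts in Ctrl basal and 125 in CL basal (0.867 and 0.932 RPKM). *Hoxb9*, of the paralog group needed for nursing, had 42 and 44 counts (0.425 and 0.445 RPKM). *Hoxb6* had 33 and 20 counts, *Hoxb8* had 16 and 6, and *Hoxb5*, which lies between *Hoxb4* and *Hoxb6*, had only 4 and 6. A high neighbour therefore did not go with a high level in every case: *Hoxb5* had 0.0374 RPKM in Ctrl basal beside 1.39 for *Hoxb4*. The outermost genes *Hoxb1* and *Hoxb13*, which act in the hindbrain and in the prostate, were at 0 in both libraries.

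HoxD (chromosome 2, 74668310 to 74765142) came next, with 17.5% of the Hox counts in Ctrl basal and 17.7% in CL basal. *Hoxd8* was its highest gene, with 101 counts and 0.96 RPKM in Ctrl basal and 63 counts and 0.597 RPKM in CL basal. *Hoxd10* had 48 and 50 counts (0.689 and 0.716 RPKM), *Hoxd4* 27 and 27, *Hoxd9* 19 and 12, and *Hoxd3* 9 and 25. *Hoxd1*, *Hoxd11*, *Hoxd12* and *Hoxd13*, the last of these a regulator of digits and genitals, had no count.

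HoxC (chromosome 15, 102921103 to 103036852) held 13.8% of the Hox counts in Ctrl basal and 10.7% in CL basal, over genes that peaked at groups 6 and 10. *Hoxc10*, a gene of the lumbar body, was the highest per length with 36 and 24 counts (0.492 and 0.327 RPKM). *Hoxc6* had 45 and 26 counts (0.487 and 0.281 RPKM). *Hoxc8*, the mammary bud gene, had 29 and 26 counts (0.267 and 0.239 RPKM), so its level was low in both libraries. Its log2 fold change was -0.15, with a wide interval of -0.98 to 0.65. *Hoxc5* had 27 and 13 counts, *Hoxc9* 20 and 6, *Hoxc4* 4 and 10, and *Hoxc11* 0 and 2. *Hoxc12* and *Hoxc13*, the latter a hair follicle gene, were at 0.

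HoxA (chromosome 6, 52155590 to 52260880) was the weakest cluster, with 89 counts over 11 genes in Ctrl basal and 75 in CL basal. Its highest gene was *Hoxa5*, which acts in lung development and in breast epithelium, with 22 and 20 counts (0.306 and 0.277 RPKM). *Hoxa7* had 18 counts in each library and *Hoxa3*, a thymus and parathyroid gene, had 10 and 18. Other genes had few reads, with 13 and 4 for *Hoxa2*, 10 and 4 for *Hoxa4*, and 6 and 11 for *Hoxa9*. *Hoxa6*, *Hoxa10*, *Hoxa11* and *Hoxa13* had none.

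Read across the clusters, the paralog groups made a band. Groups 4 to 8 carried 49.1% of the Hox counts in Ctrl basal and 43.9% in CL basal, and 14 of their 15 genes were detected, the exception being *Hoxa6*. Groups 1 to 3 carried 36.2% and 41.2%, nearly all of it from *Hoxb2* and *Hoxb3*, which both share exonic bases with the antisense gene *Hoxb3os*. Groups 9 to 13 carried 14.7% and 14.9%, from groups 9 and 10 alone except for the 2 counts of *Hoxc11*. All 6 genes of groups 12 and 13 were at 0, as were *Hoxb1* and *Hoxd1*. At this depth a count of 0 allows up to 3 counts, which is 0.0186 RPKM for *Hoxd11* and 0.0895 RPKM for *Hoxa6*, the lowest and highest of these limits in Ctrl basal. In the order of levels, every neighbouring pair of detected genes had overlapping intervals in Ctrl basal, but *Hoxb7* lay clear of *Hoxd8* and of the genes below it.

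Promoters of members with reads and of members with no read in either library (called silent here) are shown so that their sequences can be compared. They are the reference sequences of RefSeq (GRCm38.p6), from 250 bases before to 50 bases after a gene start, and 22 of the 39 genes had an entry. CG dinucleotides, the sites of DNA methylation and a feature of Polycomb-bound promoters, are in capitals. The sequences read 5′ to 3′ on the plus strand, which is the coding strand for all 4 genes, *Hoxb4* at chr11:96318017-96318316, *Hoxb1* at chr11:96365508-96365807, *Hoxd8* at chr2:74704365-74704664 and *Hoxd1* at chr2:74762730-74763029.
Hoxb4: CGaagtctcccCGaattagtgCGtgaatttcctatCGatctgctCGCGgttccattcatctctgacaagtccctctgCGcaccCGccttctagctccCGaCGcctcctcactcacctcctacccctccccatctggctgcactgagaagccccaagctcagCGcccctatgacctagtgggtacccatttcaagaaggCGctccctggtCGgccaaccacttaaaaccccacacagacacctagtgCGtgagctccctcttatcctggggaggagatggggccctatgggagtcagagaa
Hoxb1: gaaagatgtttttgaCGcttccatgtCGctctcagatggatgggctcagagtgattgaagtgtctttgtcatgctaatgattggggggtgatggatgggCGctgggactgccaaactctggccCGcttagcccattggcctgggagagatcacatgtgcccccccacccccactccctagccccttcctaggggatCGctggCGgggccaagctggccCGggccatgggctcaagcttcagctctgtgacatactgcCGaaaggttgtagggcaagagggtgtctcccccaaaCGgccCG
Hoxd8: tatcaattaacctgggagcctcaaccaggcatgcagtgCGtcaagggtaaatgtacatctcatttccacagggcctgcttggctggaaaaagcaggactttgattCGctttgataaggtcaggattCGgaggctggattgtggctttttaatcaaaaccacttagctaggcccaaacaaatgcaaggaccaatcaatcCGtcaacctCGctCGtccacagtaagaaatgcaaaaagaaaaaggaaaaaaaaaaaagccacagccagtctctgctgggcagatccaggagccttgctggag
Hoxd1: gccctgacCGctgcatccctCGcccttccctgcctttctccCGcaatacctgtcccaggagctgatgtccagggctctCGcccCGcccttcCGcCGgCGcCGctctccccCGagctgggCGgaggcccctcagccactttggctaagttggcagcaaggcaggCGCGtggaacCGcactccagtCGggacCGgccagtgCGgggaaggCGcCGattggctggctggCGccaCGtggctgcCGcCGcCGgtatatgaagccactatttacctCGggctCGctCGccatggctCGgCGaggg

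In each pair the first gene was expressed and the second had no read. *Hoxb4* holds 14 CG and the silent *Hoxb1* holds 10, whereas the expressed *Hoxd8* holds 6 and the silent *Hoxd1* holds 29. As many CG as in *Hoxd1* were found in 12.9% of the 32851 promoters of the reference table. Over all Hox entries, the 11 promoters of 9 silent genes held a median of 21 CG, the 10 promoters of genes with at least 20 counts a median of 17, and all promoters a median of 7. The numbers of CG thus ranged widely in both classes, from 4 to 45 in silent genes and from 4 to 29 in the others. TGATNNAT, a form of the site that Pbx and Hox proteins bind together, was searched on both strands. It occurs in 4 of the 24 Hox promoters, those of *Hoxa2*, *Hoxb1*, *Hoxb8* and an entry of *Hoxd11*, and in 8.85% of all promoters. Of the sequences printed above, only *Hoxb1* has it.

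The design then asks how Hox expression differed after macrophage depletion. Hox reads were fewer in CL basal. They summed to 1000 counts against 1167 in Ctrl basal, a log2 ratio of -0.23 (95% exact binomial interval -0.35 to -0.10). Of the 20 genes with at least 20 counts, 13 had fewer counts in CL basal, 2 had equal counts and 5 had more. Over all 17356 genes, 50.1% had fewer counts, and over the 8711 genes of like abundance (at least 20 and fewer than 600 counts, a range set after the Hox counts were known) 56.3% did. The median log2 fold change of the 20 genes was -0.17, against -0.01 over all genes and -0.10 over those of like abundance. In bulk RNA, fewer cells of a type and less RNA per cell cannot be told apart.

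Few members differed by 2-fold. *Hoxb8* and *Hoxc9* were at least 2-fold lower in CL basal and *Hoxd3* was at least 2-fold higher, that is 2 and 1 of 20 genes. Among all genes 4.79% were as much lower and 2.07% as much higher, and among genes of like abundance 8.91% and 3.99%. With 20 members, shares near this background are not a result about Hox genes. The interval lay below 0 for 4 members (*Hoxc5*, *Hoxc6*, *Hoxc9* and *Hoxd8*) and above 0 for *Hoxd3* only, against 25.4% and 25.2% of all genes, most of which had many more reads.

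**Figure D2:**
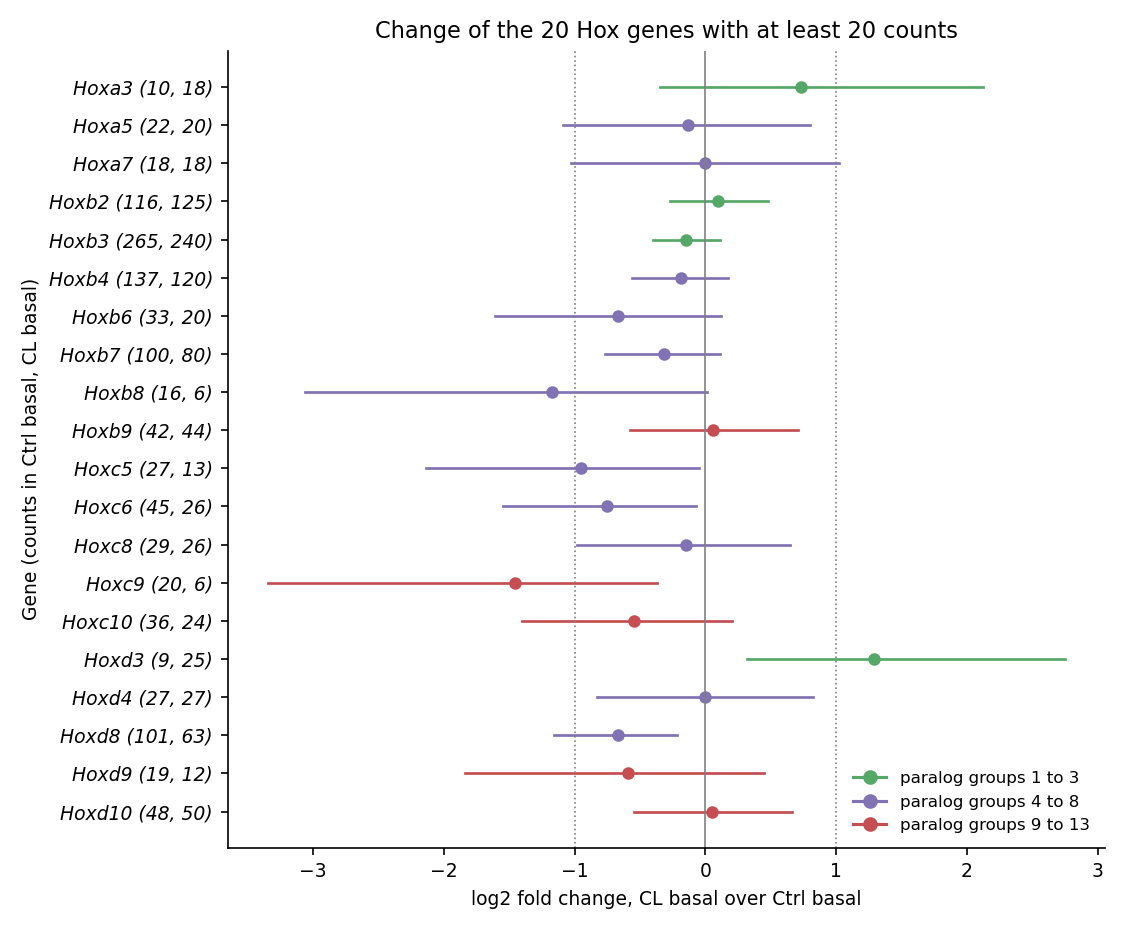
Log2 fold change of CL basal over Ctrl basal for the 20 Hox genes with at least 20 counts, with the counts of both libraries beside each name. Lines are exact 95% binomial intervals of the ratio (counting error only), dotted lines mark 2-fold, and colours give the paralog groups. *Hoxc9* and *Hoxb8* lie beyond 2-fold on the lower side and *Hoxd3* on the higher side. No plotted gene of groups 4 to 8 lies to the right of 0, and genes under 20 counts are not plotted.

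*Hoxc9*, a gene of the trunk that shapes thoracic motor neurons, had 20 counts in Ctrl basal and 6 in CL basal. Its log2 fold change was -1.46 (interval -3.35 to -0.37), the lowest among the 20. *Hoxb8*, known from myeloid cells and microglia, had 16 and 6 counts and a log2 fold change of -1.17, with an interval from -3.06 to 0.01, so a level equal in both libraries is within its counting error. *Hoxd8* rested on more reads, 101 and 63, and its log2 fold change of -0.67 (-1.16 to -0.22) was the lowest among genes with at least 100 counts.

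*Hoxd3*, which is used in growing blood vessels, had 9 counts in Ctrl basal and 25 in CL basal, a log2 fold change of 1.29 (0.32 to 2.75). Its value cannot be read alone: 2634 of its 4191 exonic bases (62.8%) are shared with other rows, namely *Hoxd4*, the same-strand gene *Gm28230*, and the antisense genes *Hoxd3os1* and *Haglr*. *Hoxd3os1* itself had 4 counts in Ctrl basal and 18 in CL basal. The most counted members differed little. *Hoxb3*, *Hoxb4*, *Hoxb2* and *Hoxb7* had log2 fold changes of -0.15 (-0.40 to 0.11), -0.19 (-0.56 to 0.17), 0.10 (-0.27 to 0.48) and -0.32 (-0.77 to 0.11), so a difference of 2-fold is outside their counting error.

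By cluster, the 5 tested genes of HoxC each had fewer reads in CL basal. They had log2 fold changes from -1.46 to -0.15 with a median of -0.75, and the cluster summed to 161 counts in Ctrl basal and 107 in CL basal, a log2 ratio of -0.59 (-0.96 to -0.23). *Hoxc4* (4 and 10 counts) and *Hoxc11* (0 and 2), under the minimum of 20 counts, had more in CL basal. Over genes of like abundance, 56.3% had fewer counts in CL basal. HoxB summed to 713 and 641 counts (-0.16, -0.31 to 0.00), with 5 of 7 genes fewer. HoxD summed to 204 and 177 (-0.21, -0.51 to 0.09), with 2 of 5 genes fewer, 2 more and 1 equal. HoxA summed to 89 and 75 (-0.25, -0.71 to 0.21), with 1 of its 3 tested genes fewer, 1 more and 1 equal. Without the genes that share exonic bases with another row, the log2 ratio of the sums was -0.68 in HoxD, where *Hoxd8* and *Hoxd9* were the tested genes left and both had fewer reads, -0.49 in HoxC, -0.28 in HoxB and -0.14 in HoxA. The order of the clusters thus depends on those genes. With all members, the intervals of the 4 clusters overlap, and no difference between clusters was tested.

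By position, reads of the middle groups were fewer in CL basal. Groups 4 to 8 summed to 573 counts in Ctrl basal and 439 in CL basal, a log2 ratio of -0.39 (-0.57 to -0.21). Of their 11 tested genes, 9 had fewer counts, 2 (*Hoxa7* and *Hoxd4*) had equal counts and 0 had more. Over genes of like abundance, 56.3% had fewer counts. Of the genes of groups 4 to 8 under the minimum of 20 counts, *Hoxb5* (4 and 6) and *Hoxc4* (4 and 10) had more and *Hoxa4* (10 and 4) had fewer. Within groups 4 to 8 the log2 ratio of the sums was -0.15 (-0.47 to 0.17) in group 4, -0.45 (-1.08 to 0.18) in group 5 and -0.27 (-0.67 to 0.13) in group 7. It was -0.77 (-1.32 to -0.22) in group 6, with 78 and 46 counts, and -0.62 (-1.01 to -0.24) in group 8, with 146 and 95. Groups 1 to 3 had 423 and 412 counts (-0.04, -0.24 to 0.16), with 3 of 4 tested genes more, and groups 9 to 13 had 171 and 149 (-0.20, -0.53 to 0.12). All 4 tested genes of groups 1 to 3 (*Hoxa3*, *Hoxb2*, *Hoxb3* and *Hoxd3*) share exonic bases with other rows, against 3 of the 11 of groups 4 to 8, so position and overlap cannot be told apart here. *Hoxb9* and *Hoxd10* were close in both libraries, with log2 fold changes of 0.06 (-0.58 to 0.71) and 0.05 (-0.55 to 0.66).

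**Figure D3:**
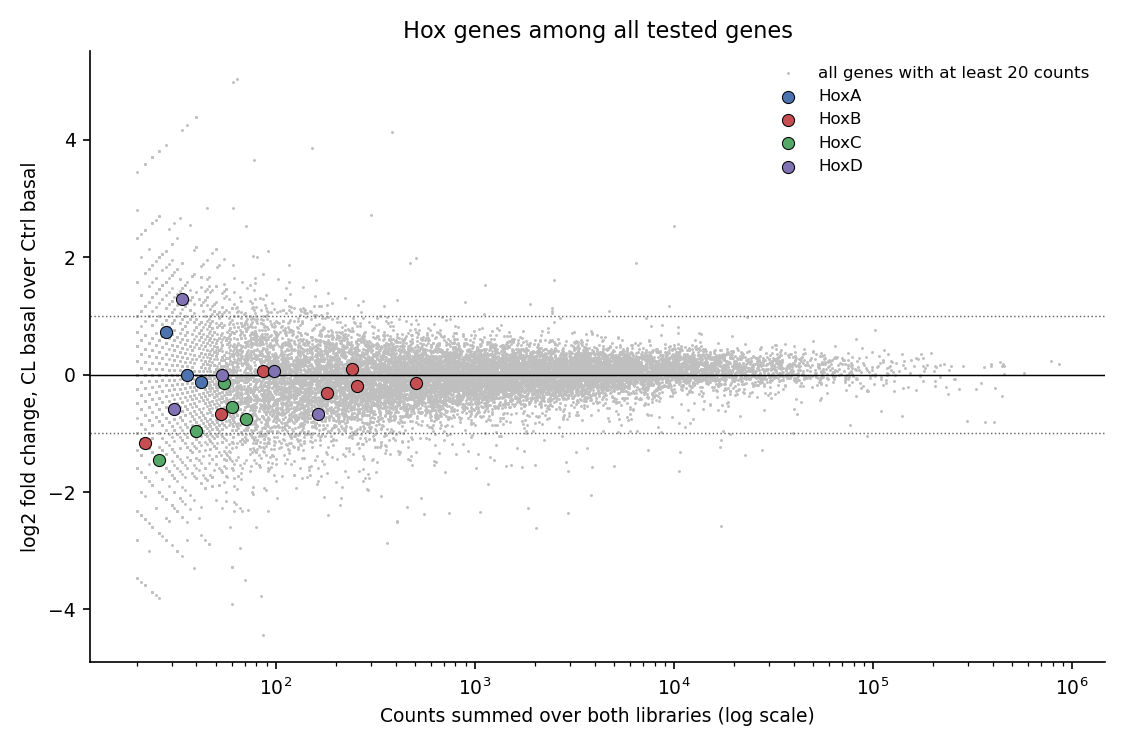
Log2 fold change against counts summed over both libraries (log axis) for all 17356 genes with at least 20 counts (grey), with the 20 Hox genes coloured by cluster. The Hox genes lie at low counts, where the grey points spread widest, and those past the dotted 2-fold lines are among the least counted of the 20.

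Exons of 16 Hox genes overlap another row. Whether reads were assigned by strand is not given in the sources used here, and the values do not settle it. In 44 pairs of genes in which at least 90% of the exonic bases of the inner gene lay in exons of a longer gene on the opposite strand with at least 1 count per base, the inner gene had a median of 0.662 of the outer gene's level per length, with 54.5% of the pairs above a ratio of 0.5 and 18.2% below 0.1. In 10 such pairs on the same strand the median was 0.427. The most read noncoding row inside a cluster was *Hoxb3os*, an antisense RNA with 333 counts in Ctrl basal and 318 in CL basal (2.07 and 1.97 RPKM). It overlaps 2250 of the 4251 exonic bases of *Hoxb3* (52.9%) and 953 of those of *Hoxb2*, which is most of its own 4201 exonic bases, so sense and antisense RNA cannot be told apart in the values of these 3 genes. *Gm28230*, which shares exons with *Hoxd4* and *Hoxd3*, had 31 and 24 counts, *Gm28309* at *Hoxd10* and *Hoxd11* 27 and 22, and the lincRNA *Gm53* beside *Hoxb9* 10 and 17.

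The 23 Hox genes that share no exonic base summed to 568 counts in Ctrl basal and 435 in CL basal (-0.39, -0.57 to -0.21), with 10 of 11 tested genes fewer and a median log2 fold change of -0.59. The 16 overlapping genes summed to 599 and 565 (-0.09, -0.26 to 0.08), with 3 of 9 tested genes fewer. The difference between these sets was not tested, and over genes of like abundance 56.3% had fewer counts in CL basal. *Hoxb7*, *Hoxb4*, *Hoxd8*, *Hoxc6* and *Hoxc9* are among the genes without overlap.

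Cofactors of Hox proteins were mostly close in both libraries. *Pbx3*, a direct Hox partner, had 565 counts in Ctrl basal and 634 in CL basal (2.41 and 2.7 RPKM), a log2 fold change of 0.16 (0.00 to 0.33), and *Pknox1* 494 and 626 (0.34, 0.17 to 0.51). *Pbx2* was lower, with 267 and 189 counts (-0.50, -0.78 to -0.23). The largest differences were in Meis genes and went opposite ways. *Meis1* went from 61 counts in Ctrl basal to 122 in CL basal (0.97, 0.54 to 1.46) and *Meis2* from 299 to 172 (-0.79, -1.08 to -0.53). Of 9 listed cofactors, 8 had enough counts and 0 were past 2-fold, where 2.07% of all genes were as much higher and 4.79% as much lower. Their median was 0.14.

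Polycomb and Trithorax genes, the silencers and activators of Hox clusters, differed little. Of 27 Polycomb genes, 1 was at least 2-fold higher, *Cbx8* (24 counts in Ctrl basal and 54 in CL basal, log2 fold change 1.10, named after its value was seen), and 0 were lower, with a median of 0.06. The shares over all genes were 2.07% and 4.79%, and over genes of like abundance 3.99% and 8.91%. The most counted were *Rbbp7* (0.34), *Rnf2* (0.32) and *Phc2* (-0.08), and *Ezh2*, the methyltransferase, had 1617 and 1505 counts (-0.11, -0.21 to -0.01). Of 13 Trithorax genes, 0 were past 2-fold, beside the same shares, and the median was 0.11. *Kdm6b*, which removes the Polycomb mark, had 19855 and 25604 counts (0.36, 0.34 to 0.39), *Psip1* had 11513 and 12418 (0.11), and *Kmt2d* had 5565 and 5943 (0.09).

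Retinoic acid genes held the largest differences among these lists of cofactors and regulators. *Aldh1a3*, an enzyme that makes retinoic acid, had 19601 counts in Ctrl basal and 8048 in CL basal, a log2 fold change of -1.29 (-1.33 to -1.25). All 12 luminal markers were lower in CL basal too, with a median of -0.86. The part of other cells in the *Aldh1a3* value was not tested. *Stra6*, the retinol receptor, had 29 and 5 counts (-2.15, -4.27 to -1.15) and *Rxrg* 14 and 6 (interval -2.89 to 0.24), both named after their values were seen. These 3 were the members past 2-fold among 15 tested of 17, all lower, beside 4.79% of all genes and 8.91% of those of like abundance that were as much lower. *Stra6* and *Rxrg* rested on few reads, and *Rxrg* lay at the 2-fold limit. The number past it was 2 with upper quartile scaling, halved counts, the trend on mean expression removed, a prior count of 5 or the deeper library thinned. The median of the list was -0.17. The receptors *Rara* (0.18, 0.07 to 0.29) and *Rarg* (-0.09, -0.20 to 0.02) differed less, and *Crabp2*, which carries retinoic acid, had a log2 fold change of -0.17 (-0.28 to -0.07). Of other regulators, the 3 *Cdx* genes, activators of Hox genes in the embryo, were at 0 in both libraries, *Ctcf* had 3524 and 3506 counts (-0.01), and *Gmnn* had 98 and 60 (-0.69).

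**Figure D4:**
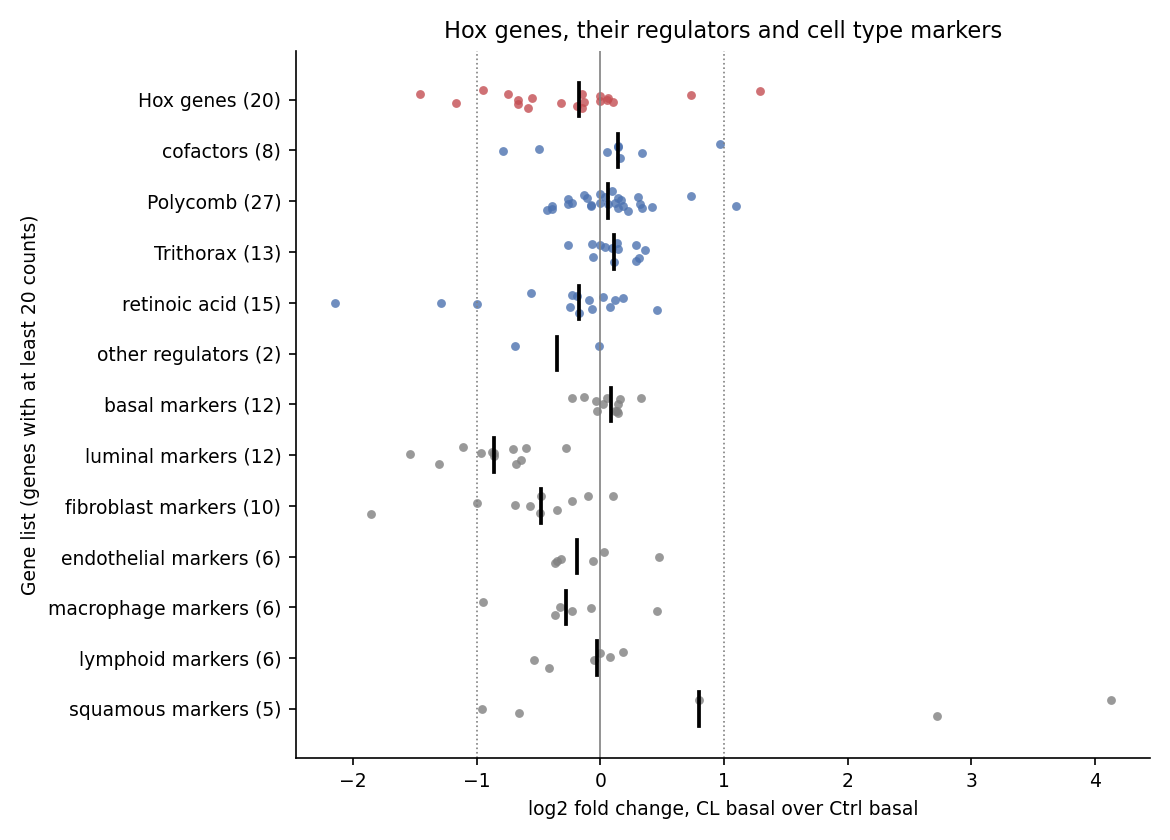
Log2 fold change of CL basal over Ctrl basal for each gene with at least 20 counts in the Hox set (red), the lists of Hox cofactors and regulators (blue) and the cell type marker lists (grey). Black bars are medians, dotted lines mark 2-fold, points are spread vertically for sight only, and the number of genes stands in brackets. The Hox median (-0.17) lies between those of the basal (0.08) and the luminal markers (-0.86).

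Most marker lists of other cell types also had lower medians in CL basal. All 12 luminal markers were lower in CL basal, with a median of -0.86 and a summed level of 2558 RPKM in Ctrl basal and 1444 in CL basal. Of 10 fibroblast markers 9 were lower, with a median of -0.48 and a summed level of 65.7 and 48.4 RPKM. The 6 endothelial markers had a median of -0.19 (72.3 and 58.4 RPKM), the 6 tested of 8 macrophage markers a median of -0.28 (9.67 and 7.81 RPKM), and the 6 lymphoid markers a median of -0.03 (2.51 and 2.46 RPKM). The squamous list went the other way, with a median of 0.80 (9.92 and 12.3 RPKM) over 5 tested of 6 genes, 3 of them higher and 2 lower. *Krt1* had 19 and 367 counts and *Krt10* 38 and 262, both past 2-fold, while *Sbsn* had 1196 and 615. No defining marker of these types was at 0 in Ctrl basal except *Krtdap* (0 and 2 counts). All 39 Hox genes together had 11.5 RPKM in Ctrl basal and 9.48 in CL basal, and the part of the other cells in these values was not tested.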

How the data were processed

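Total RNA of FACS-sorted basal cells was sequenced on an Illumina HiSeq instrument. The authors deposited raw read counts per gene over annotated exons, not normalized, in the column layout of featureCounts, with the exonic length of each gene. The aligner, annotation release and use of strand are not given in the sources used here, and the submitters' processing notes name GRCm38. Starts and ends of all 39 Hox genes matched GENCODE M21. A deposited ratio of the libraries and its log2 were not used.

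Counts were scaled by TMM in edgeR 4.0.16 (R 4.3.3), the factors being 1.01331 (Ctrl basal) and 0.986862 (CL basal). The minimum for a comparison was 20 counts, summed over the libraries, which left 17356 genes. Log2 fold changes used a prior count of 2. Intervals were exact (Clopper-Pearson for ratios, computed without a prior, and Poisson for levels, scipy 1.17.1 in Python 3.11.15). With 1 library per group no model with a spread between samples could be fitted, so past 2-fold is a size and not a test. The calculation was tested on simulated counts. Alternatives were other scalings (total counts, DESeq2 1.42.0 size factors, upper quartile), prior counts of 0.5 and 5, no filter or 100 counts, a thinned library, halved counts, a trend on mean expression removed (statsmodels lowess, fraction 0.3), other thresholds and TPM.

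Named genes were the 5 Hox genes highest per length in Ctrl basal, the highest of each cluster, those past 2-fold, and in each list of regulators the 3 most counted and those past 2-fold with at least 100 counts. Other genes are named to account for the Hox genes or for their role. Results for some of these genes are not reported here. The members and lists were chosen with earlier results of these data known. Protein sequences were not used here.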

Additional observations from a re-analysis of the deposited data

How the results depend on the processing

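Of 444 values under alternatives, 411 stayed close to the value reported, by 1 of 3 measures: within its counting interval for genes and sums, within the typical interval of the member genes for medians, a wide margin at these counts, and within 1.5 times for counts of genes. They included all 140 log2 fold changes of single Hox genes and all 103 medians. The intervals of single genes were wide at these counts too, so these 2 numbers say little about stability. The Hox median ran from -0.59 (without genes that share exonic bases) to -0.07 (trend on mean expression removed), the HoxC median from -0.82 to -0.55, the HoxA median, 0.00 as reported, from -0.13 to 0.13, and the HoxD median, also 0.00, from -0.67 (at least 100 counts, *Hoxd8* alone) to 0.12, with -0.63 without genes that share exonic bases. The number of Hox genes past 2-fold, 2 lower and 1 higher, was 1 lower with a prior count of 5, 5 lower with no filter, 0 lower and 0 higher among genes with at least 100 counts, 7 lower and 2 higher at 1.5-fold, 1 lower where the interval also had to exclude 0, and 0 higher without Hox genes that share exonic bases. Without those genes the log2 ratio of summed counts was -0.39 for all Hox genes and -0.68 for HoxD, where *Hoxd3*, *Hoxd4* and *Hoxd10* drop out. For the lists of regulators, 1 cofactor was past 2-fold higher with the upper quartile and with the trend removed. At 1.5-fold 1 cofactor was lower and 1 higher, 2 Polycomb genes were higher and 1 other regulator was lower. Among genes with at least 100 counts 0 Polycomb genes were higher and 1 retinoic acid gene was lower.

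The number of Hox genes at the level threshold, 3 in each library, was 6 in each at 0.5 RPKM (2 of them in HoxD in each) and 0 at 2 RPKM, for HoxB too. In TPM, a unit with a larger value for the same gene here, 10 Hox genes reached 1 in Ctrl basal and 7 in CL basal. Of these, 6 and 5 were in HoxB, 2 and 2 in HoxD, and in Ctrl basal 2 in HoxC. No paired analysis was possible because Ctrl basal and CL basal were 1 library each, and for the same reason no replicate could be left out. The counts of single Hox genes, mostly under 50 per library, limit what can be read from any of them.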

Other observations

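Genes beside the Hox clusters were mostly level between the libraries. Among the 3 nearest rows with at least 20 counts on each side of each cluster, *Skap2* beside HoxA had 1255 counts in Ctrl basal and 1214 in CL basal (log2 fold change -0.05), *Ube2z* beside HoxB had 2494 and 2489 (-0.01), *Calcoco1* and *Cbx5* beside HoxC had 3894 and 4067 (0.06) and 699 and 659 (-0.09), and *Lnpk1* and *Mtx2* beside HoxD had 243 and 242 (-0.01) and 247 and 246 (-0.01). *Smug1*, a DNA repair glycosylase 116 kb from HoxC, had 36 counts in Ctrl basal and 77 in CL basal (1.05, 0.50 to 1.71), and the pseudogene *Rpl39-ps* beside HoxC had 16 and 6 (-1.17, -3.06 to 0.01). These were the neighbours past 2-fold and were singled out after their values were seen. Over all genes 2.07% were as much higher and 4.79% as much lower, and over genes of like abundance 3.99% and 8.91%. *Halr1*, a noncoding RNA 41.9 kb from HoxA, had 13 and 23 counts (0.73, -0.22 to 1.92).

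Inside the clusters, 23 of 46 rows that are not Hox genes had 0 counts in both libraries, among them *Hotair* and *Hoxa11os*. The 6 microRNA rows named Mir held 4 counts in all, 2 at *Mir10b* and 2 at *Mir196a-1*, in Ctrl basal. Hairpin rows of such a library do not measure mature microRNAs.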
